A study of Mus musculus with 8 samples.

Results

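Expression of 46 genes that drive or mark the cell division cycle was followed in RNA of naive mouse corneas of the inbred strains BALB/c and C57BL/6N. The genes were chosen by name, with earlier results of these data known. They cover replication licensing and fork proteins (10), enzymes of deoxynucleotide supply (3), G1 and S cyclins (6), mitotic cyclins (2), cyclin-dependent kinases (4) and their inhibitors (5), mitotic kinases with the spindle checkpoint (5), spindle, kinetochore and chromosome proteins (7) and transcription factors (4). All 46 were found among the 54532 genes listed and passed the filter on low values, which left 25402 genes for testing.

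The study sequenced total RNA of 4 corneas of BALB/c mice, which it calls BALB/cN, and of 4 corneas of C57BL/6N mice, all male and untreated, to rank candidate genes for the strains' difference in corneal lymphatic vessels. Neither the labels nor the methods name a transgene or a treatment for these mice, and the age of the sequenced mice is not stated apart from that of the mice used for vessel measurements. The sources give 4 corneas per strain and do not say whether each came from a separate animal, so p-values measure the spread between these corneas. Values are regularized log (rlog) values, a log2 scale normalized for library size on which weakly expressed genes are pulled towards their mean, so that fold changes of low genes come out too small. Differences are BALB/c minus C57BL/6N with the standard error (SE) from limma, and adjusted p-values are Benjamini-Hochberg values from limma over all genes tested.

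A dividing cell passes from G1, in which D cyclins with Cdk4 and Cdk6 release E2F transcription factors from the retinoblastoma proteins, into S phase, in which licensed origins fire and DNA is copied. G2 and mitosis follow, driven by cyclin A and B with Cdk1 and by genes that the MuvB complex with B-Myb and FoxM1 switches on. In the cornea, basal epithelial cells and their progenitors at the limbus divide and replace the cells shed from the surface, whereas keratocytes and endothelial cells of the uninjured adult mouse rarely divide.

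The RNA came from cornea without separation of its layers, so these values belong to the cornea and cannot be assigned to the epithelium alone. Krt12, the keratin of corneal epithelium, lay between 19.60 and 19.85 in the 8 corneas and Krt5, a basal keratin, between 18.75 and 18.98, with overlapping strain ranges for both. Kera, a keratocyte proteoglycan, was present as well but varied from 9.85 to 14.90. In such bulk RNA, fewer cells of a type and less RNA per cell cannot be told apart.

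Replication and mitosis genes lay mostly on opposite sides. Of the 13 replication genes (licensing, fork and deoxynucleotide supply), 12 had a higher mean in BALB/c, with a median difference of 0.30. Of the 14 mitosis genes (mitotic cyclins, mitotic kinases and spindle proteins), 13 had a lower mean in BALB/c, with a median of -0.16. The mitosis median rested in part on BALB/c replicate 1, and was -0.085 without it (11 of 14 lower). Without replicate 4 alone the median stayed at -0.16 (13 of 14 lower). Replicates 1 and 4 were the corneas with most lens RNA, and without both the mitosis median was -0.044 (10 of 14 lower). The replication median was 0.32 without both of them, but 0.17 (9 of 13 higher) in the 5 corneas richest in stroma. Over all 46 genes the median difference was -0.0042, against 0.0077 over all genes tested and 0.00057 over the 12244 genes with a mean rlog of at least 7, a level that all of the 46 but Cdkn2a reached.

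At the study's threshold, an adjusted p of 0.01, 3 of the 46 (6.52%) were called, E2f7, Mcm4 and Cdt1, all higher in BALB/c. That share is near the background, since 5.74% of all genes tested and 8.92% of those with a mean rlog of at least 7 were called. None of the 3 passed 0.01 after each cornea was centred on its median. Their adjusted p was then 0.0155 for E2f7, 0.0194 for Cdt1 and 0.0571 for Mcm4. When p-values were rescaled by an empirical null, these genes had an adjusted p of 0.587, 0.634 and 0.63. That setting called 0 of all genes tested at 0.01 and at 0.05, so it cannot tell these 3 from other genes. As fitted, 10 of the 46 were higher in BALB/c and 4 lower at an adjusted p of 0.05, the alternative threshold, together 30.4%. After median centring, 5 were higher (Pcna, Mcm3, Cdt1, Ccnd2 and E2f7) and 1 lower (Kif11). Without centring, the background at 0.05 was 5.56% of all genes higher and 5.63% lower. Among genes with a mean rlog of at least 7 it was 8.31% and 8.85%. The strains' ranges did not overlap in 18 of the 46 (39.1%), of which 12 were higher in BALB/c and 6 lower. Among all genes tested 8.75% lay wholly higher and 9.58% wholly lower in BALB/c, and among those with a mean rlog of at least 7 the share apart in either direction was 24.8%. In what follows, a gene is said to be higher or lower without a qualifier where its adjusted p was 0.05 or less.

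**Figure D1:**
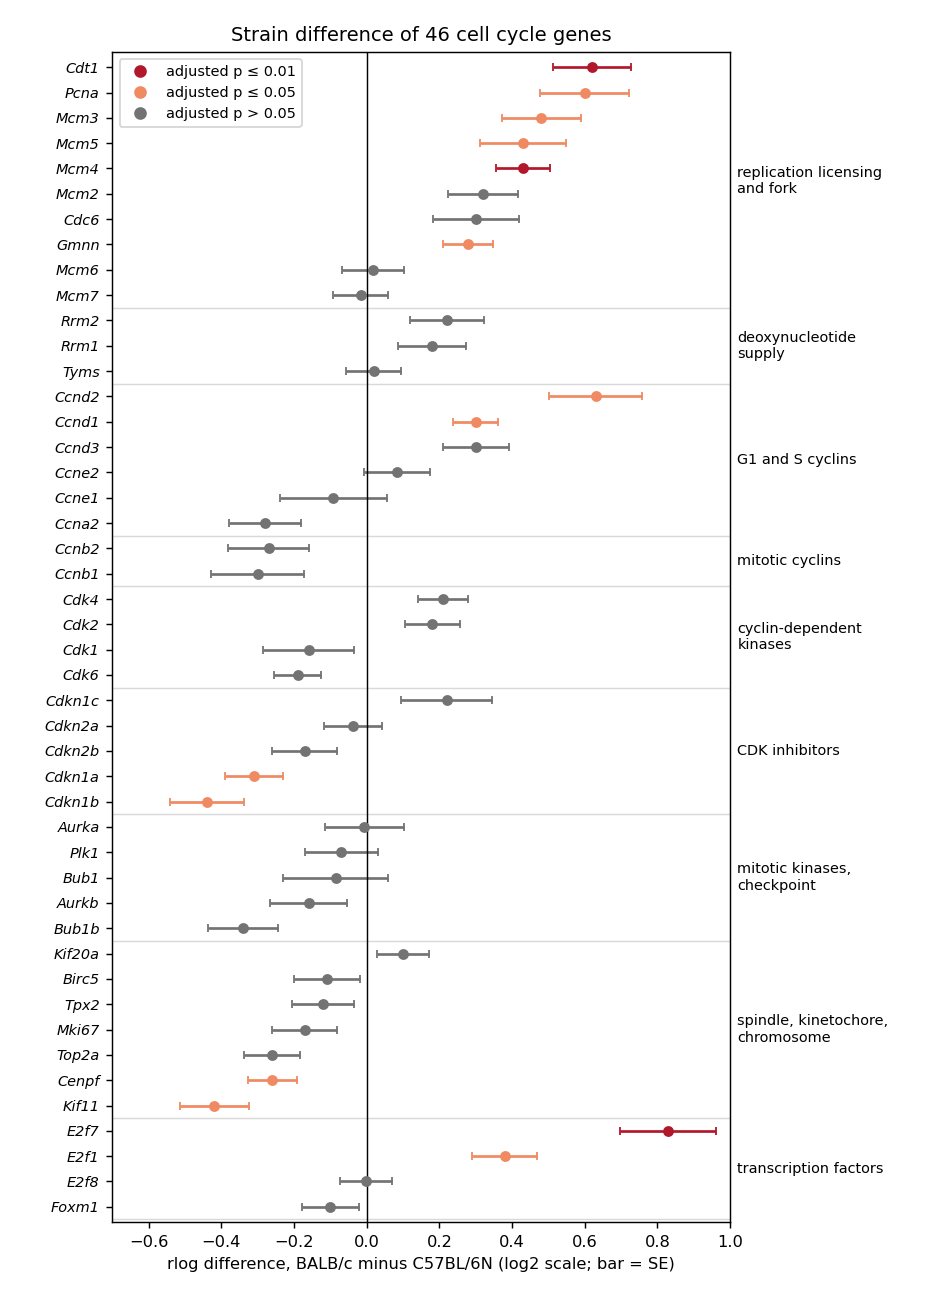
Difference of each of the 46 genes between strains (x axis, rlog units, BALB/c minus C57BL/6N, bars SE, n = 4 corneas per strain), grouped by role and coloured by the adjusted p-value from limma. Points of the replication group lie mostly to the right of 0, with Cdt1 at 0.62, and those of the mitosis groups mostly to the left, with Kif11 at -0.42. E2f7 lies farthest right at 0.83.

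Promoters of genes that act in S phase are known for E2F sites and those of mitotic genes for other elements, and 5 promoters are shown here because they carry such letters in 2 replication genes, 2 mitosis genes and the transcription factor gene E2f7, all with strain ranges apart. Each sequence runs from 250 bases before to 50 bases after the gene's RefSeq start on GRCm38.p6, 5′ to 3′ on the gene's own strand. Capitals mark matches on either strand to E2F letters (TTTCCCGC, TTTCGCGC, TTTGCCGC or TTTGGCGC), to the cell cycle genes homology region or CHR (TTTGAA or TTCGAA) and to the CCAAT box (CCAAT). None of these motifs contains another. E2f7 is at chr10:110745189-110745488 (+), Cdt1 at chr8:122567765-122568064 (+), Mcm3 at chr1:20820263-20820562 (-), Cenpf at chr1:189688037-189688336 (-) and Top2a at chr11:99024140-99024439 (-).
E2f7: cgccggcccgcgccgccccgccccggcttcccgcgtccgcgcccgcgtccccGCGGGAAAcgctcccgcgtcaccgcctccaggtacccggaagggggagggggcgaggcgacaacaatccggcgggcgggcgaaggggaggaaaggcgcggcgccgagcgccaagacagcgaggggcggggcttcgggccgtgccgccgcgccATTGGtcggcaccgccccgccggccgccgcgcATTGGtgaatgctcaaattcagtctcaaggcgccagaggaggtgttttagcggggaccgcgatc
Cdt1: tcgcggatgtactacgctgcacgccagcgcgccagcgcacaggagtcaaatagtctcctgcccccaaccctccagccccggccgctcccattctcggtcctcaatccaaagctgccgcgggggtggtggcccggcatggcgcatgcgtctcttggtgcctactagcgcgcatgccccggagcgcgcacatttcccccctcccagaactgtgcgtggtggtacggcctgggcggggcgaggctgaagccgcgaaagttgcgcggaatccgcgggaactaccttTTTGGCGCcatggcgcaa
Mcm3: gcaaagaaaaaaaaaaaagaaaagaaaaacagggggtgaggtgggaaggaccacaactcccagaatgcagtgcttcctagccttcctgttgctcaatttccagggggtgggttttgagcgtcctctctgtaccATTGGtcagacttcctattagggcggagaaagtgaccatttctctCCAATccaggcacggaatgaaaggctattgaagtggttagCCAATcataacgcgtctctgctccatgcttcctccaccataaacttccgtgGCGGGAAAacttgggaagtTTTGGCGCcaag
Cenpf: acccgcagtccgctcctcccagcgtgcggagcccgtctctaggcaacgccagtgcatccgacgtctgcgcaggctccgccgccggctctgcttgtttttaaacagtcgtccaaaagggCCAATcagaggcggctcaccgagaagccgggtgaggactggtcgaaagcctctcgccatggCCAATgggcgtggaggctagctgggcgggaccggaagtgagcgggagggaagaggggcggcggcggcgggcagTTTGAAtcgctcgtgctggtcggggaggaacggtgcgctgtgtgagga
Top2a: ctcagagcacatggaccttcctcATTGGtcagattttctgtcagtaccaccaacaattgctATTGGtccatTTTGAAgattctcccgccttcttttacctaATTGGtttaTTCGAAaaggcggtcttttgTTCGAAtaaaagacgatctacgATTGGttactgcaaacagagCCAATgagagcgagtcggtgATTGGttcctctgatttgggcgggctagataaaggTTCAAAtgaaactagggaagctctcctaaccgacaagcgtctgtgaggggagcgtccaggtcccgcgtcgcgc

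Of the 46 genes, 35 had a promoter entry. E2F letters stood in 6 of 11 replication genes (54.5%) and in 0 of 11 mitosis genes, against 2.60% of the 27025 genes with promoters of the same length in the table. A gene with several promoters was counted once, if any of them matched. CHR letters stood in 9 of 11 mitosis genes (81.8%) and 2 of 11 replication genes (18.2%), against 21.7% of all genes. The CCAAT box, which works beside the CHR in many mitotic promoters, was found in 10 of 11 mitosis genes (90.9%) and in 8 of 11 replication genes (72.7%), against 41.1% of all. A match describes the letters only and shows no binding. Of the 6 genes higher at 0.05 with a promoter entry, 4 carried E2F letters, while Pcna and E2f1 did not. Of the 4 lower ones, 0 did. Among genes not called, Mcm6 and Mcm7 carried them too, at differences of 0.017 and -0.017. Whether such letters go with the strain difference was not tested.

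Among transcription factors, E2f7, an atypical E2F that represses E2F targets late in S phase and in G2, differed most of the 46. It is encoded at chr10:110745439-110787384 (+), and its rlog value was 11.36, 11.64, 11.87 and 11.64 in BALB/c replicates 1 to 4 and 10.65, 10.58, 10.83 and 11.11 in C57BL/6N replicates 1 to 4. Every BALB/c cornea lay above every C57BL/6N cornea. The difference was 0.83 (SE 0.132, n = 4 per strain), a 1.78-fold change on the rlog scale, with an adjusted p of 0.00312 and an exact two-sided permutation p of 0.0286, the smallest that 4 against 4 corneas allow. With 1 cornea left out the difference stayed between 0.75 and 0.94. Its adjusted p stayed at or below 0.01 without BALB/c replicate 1 or C57BL/6N replicate 2 or 4, and was 0.0108 to 0.0118 without any other cornea.

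E2f1, an activator of S phase genes, was also higher in BALB/c, with 7.72, 8.07, 7.78 and 7.86 against 7.48, 7.42, 7.55 and 7.47. The ranges were apart and the difference was 0.38 (SE 0.0898, adjusted p = 0.025), and the adjusted p was 0.227 after median centring. It missed 0.05 without BALB/c replicate 4 or C57BL/6N replicate 1, 2 or 4 (adjusted p = 0.0569 to 0.0656).

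E2f8, the paralogue of E2f7 with which it shares targets, was not called. Its values were 9.30, 9.47, 9.57 and 9.56 in BALB/c and 9.52, 9.49, 9.48 and 9.43 in C57BL/6N, a difference of -0.0021 (SE 0.0716). Foxm1, which drives genes of G2 and mitosis, had 10.07, 10.30, 10.39 and 10.18 against 10.33, 10.29, 10.45 and 10.26, also with overlapping ranges and a difference of -0.10 (SE 0.0791, adjusted p = 0.514). The difference between E2f7 and E2f8 was not tested as such.

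In the licensing and fork group, 6 of 10 genes rose in BALB/c and 0 fell at an adjusted p of 0.05, with a median difference of 0.37. Among genes with a mean rlog of at least 7, 8.31% were higher and 8.85% lower at that threshold. Cdt1 loads the MCM helicase onto origins and is held in check by geminin, the product of Gmnn. Cdt1 (chr8:122568015-122573554, +) stood at 8.71, 9.10, 9.12 and 9.04 in BALB/c and 8.48, 8.49, 8.22 and 8.30 in C57BL/6N. The lowest BALB/c cornea, replicate 1, still lay above all 4 of the other strain. The difference was 0.62 (SE 0.108), 1.53-fold on the rlog scale, with an adjusted p of 0.00524 and an exact two-sided permutation p of 0.0286. This adjusted p passed 0.01 without BALB/c replicate 1 or C57BL/6N replicate 2, and was 0.0108 to 0.0211 without any other cornea.

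Gmnn values were 7.82, 7.78, 7.95 and 7.90 in BALB/c against 7.60, 7.59, 7.61 and 7.55 in C57BL/6N. The inhibitor of Cdt1 was thus higher in the same strain, by 0.28 (SE 0.0689, adjusted p = 0.0314), although not after median centring (adjusted p = 0.309). Its call at 0.05 was kept only without BALB/c replicate 2 or C57BL/6N replicate 3, and the adjusted p was 0.062 to 0.0976 without any other cornea.

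The 6 subunits of the MCM2-7 helicase, which unwinds DNA at the fork, were not all called. Mcm4 (chr16:15623897-15637400, -) stood at 10.66, 10.82, 10.79 and 10.68 in BALB/c and at 10.43, 10.40, 10.21 and 10.20 in C57BL/6N, with ranges apart. Its difference of 0.43 (SE 0.0733) had an adjusted p of 0.00473 and an exact two-sided permutation p of 0.0286. Without any of the 4 BALB/c corneas or without C57BL/6N replicate 3 or 4, the adjusted p was 0.0112 to 0.0197.

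Mcm3 was 9.70, 9.83, 9.90 and 9.96 against 9.65, 9.44, 9.21 and 9.19, higher in BALB/c by 0.48 (SE 0.109, adjusted p = 0.0207), with ranges apart by the gap between BALB/c replicate 1 and C57BL/6N replicate 1. Without BALB/c replicate 3 or 4 or C57BL/6N replicate 3 or 4 it missed 0.05 (adjusted p = 0.0564 to 0.0641). Mcm5 was 9.85, 10.06, 10.21 and 10.17 against 9.94, 9.66, 9.46 and 9.50, a difference of 0.43 (SE 0.118, adjusted p = 0.0445). Here BALB/c replicate 1 lay below C57BL/6N replicate 1, so the ranges overlapped, the exact two-sided permutation p was 0.0571, and 6 of the 8 corneas were each needed for the call: the adjusted p was 0.0833 to 0.125 without BALB/c replicate 2, 3 or 4 or C57BL/6N replicate 2, 3 or 4.

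Mcm2 had ranges apart but missed the threshold, with 10.16, 10.16, 10.25 and 10.14 against 10.13, 9.90, 9.68 and 9.74 (difference 0.32, SE 0.0957, adjusted p = 0.0677). The other 2 subunits showed no such gap. Mcm6 was 9.75, 10.01, 9.86 and 9.90 against 10.06, 9.88, 9.77 and 9.74 (difference 0.017, SE 0.086), and Mcm7 was 9.25, 9.42, 9.19 and 9.30 against 9.41, 9.36, 9.18 and 9.28 (difference -0.017, SE 0.0749). Their signs were not stable, since Mcm6 turned to a lower mean in BALB/c in 8 of 20 other settings and Mcm7 to a higher mean in 2 of 20. Some of these 20 settings change only p-values or the genes tested, so they cannot turn a sign.

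Pcna, the sliding clamp of the DNA polymerases, had values of 9.71, 9.63, 9.93 and 9.94 in BALB/c and 9.13, 9.53, 9.20 and 8.97 in C57BL/6N. All BALB/c corneas were above all C57BL/6N corneas, and C57BL/6N replicate 2 came close to the lowest of them. The difference was 0.60 (SE 0.123, adjusted p = 0.0127, exact two-sided permutation p = 0.0286), and it passed 0.05 whichever cornea was left out. It missed 0.05 with the mean of epithelial genes as a covariate (adjusted p = 0.054), in the 5 corneas richest in stroma (0.0625) and without BALB/c replicates 1 and 4 (0.128). A copy of this gene, Pcna-ps2, was listed at means of 8.62 and 8.32 (difference 0.31, adjusted p = 0.0725), so reads may be shared between the 2 loci and the value of Pcna is uncertain to that extent. Cdc6, the loader that acts with Cdt1, was 7.44 to 7.92 in BALB/c and 7.18 to 7.52 in C57BL/6N (difference 0.30, SE 0.118, adjusted p = 0.152).

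The enzymes that supply deoxynucleotides had 0 of 3 called. Rrm2, the regulated subunit of ribonucleotide reductase, was 9.68, 9.996, 9.88 and 9.85 against 9.90, 9.51, 9.52 and 9.58, with C57BL/6N replicate 1 inside the BALB/c range (difference 0.22, SE 0.102, adjusted p = 0.223). Rrm1, its larger partner, differed by 0.18 (SE 0.094). Tyms, thymidylate synthase, was 8.67, 8.82, 8.91 and 8.73 against 8.81, 8.85, 8.66 and 8.74 (difference 0.019, SE 0.075), and this sign turned in 5 of 20 other settings.

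Of the cyclins that act in G1 and S, Ccnd1 had the highest level of all 46 genes per kilobase of exon, with a mean rlog less log2 of exon length of 11.91. Cyclin D1 carries growth signals to Cdk4 and Cdk6. Ccnd1 was 14.19, 14.45, 14.28 and 14.26 in BALB/c and 13.92, 13.97, 14.00 and 14.08 in C57BL/6N. The ranges were apart and the difference was 0.30 (SE 0.0618, adjusted p = 0.0116), with an adjusted p of 0.0133 to 0.0348 when 1 cornea was left out. After median centring the call was lost (adjusted p = 0.319).

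Ccnd2 was 12.77, 12.83, 12.40 and 12.84 against 12.32, 12.22, 11.85 and 11.93, higher in BALB/c by 0.63 (SE 0.128, adjusted p = 0.0122). Replicate 3 was well below the other 3 BALB/c corneas and just above the highest C57BL/6N cornea, and without it the adjusted p fell to 0.00577. Ccnd3, the remaining D cyclin, was 10.36, 10.21, 10.18 and 10.34 against 10.12, 10.12, 9.86 and 9.79. Its ranges were also apart, at a difference of 0.30 (SE 0.0904) and an adjusted p of 0.0664.

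Neither cyclin A nor the E cyclins were called. Ccne1, which opens S phase with Cdk2, was 7.70, 8.35, 8.32 and 8.40 in BALB/c and 8.30, 8.19, 8.39 and 8.26 in C57BL/6N. BALB/c replicate 1 stood far below the rest, and the difference of -0.092 (SE 0.147) became 0.072 without it. Ccne2 differed by 0.084 (SE 0.0914). Ccna2, a cyclin of S phase and G2, was 10.31, 10.43, 10.60 and 10.50 against 10.99, 10.72, 10.56 and 10.68, and overlapped only through BALB/c replicate 3 and C57BL/6N replicate 3 (difference -0.28, SE 0.0982, adjusted p = 0.114).

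**Figure D2:**
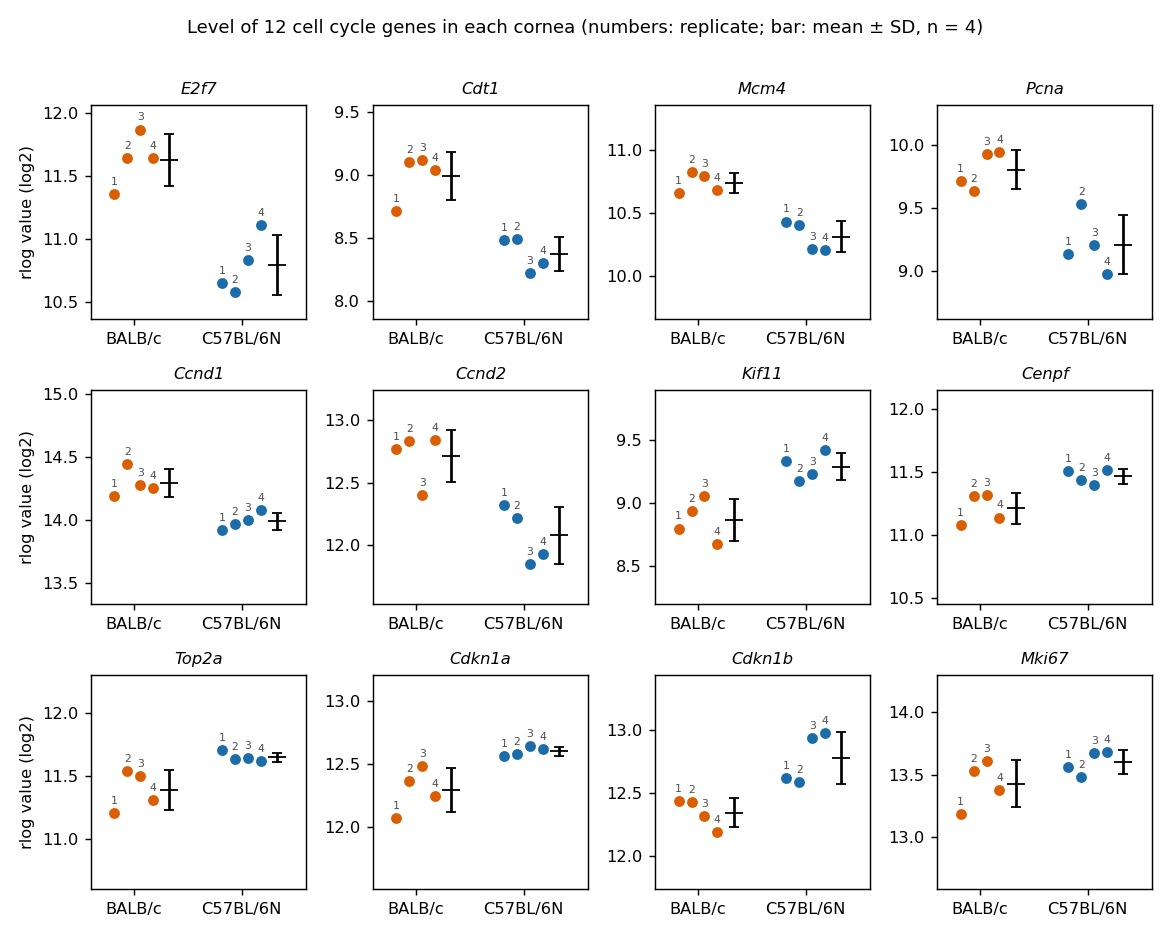
rlog value (y axis, log2 scale, the same span in each panel) of 12 genes in each cornea, with replicate numbers above the points and the mean ± SD (n = 4) beside them. E2f7, Cdt1, Mcm4, Pcna, Ccnd1 and Ccnd2 are wholly higher in BALB/c and Kif11, Cenpf, Top2a, Cdkn1a and Cdkn1b wholly lower, while Mki67 overlaps.

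Of the kinase partners, 0 of 4 were called. Cdk4 was 10.92, 10.95, 11.06 and 10.96 against 10.90, 10.78, 10.60 and 10.75, with ranges just apart (difference 0.21, SE 0.0694, adjusted p = 0.0863). Cdk6, which shares the D cyclins with Cdk4, had the opposite sign, with 11.82, 11.98, 11.75 and 11.81 against 12.01, 12.12, 11.91 and 12.05 (difference -0.19, SE 0.0656, adjusted p = 0.116). Cdk2 differed by 0.18 (SE 0.0758, adjusted p = 0.192). Cdk1, the kinase that starts mitosis, was 8.81, 8.69, 9.02 and 8.86 against 9.23, 9.11, 8.66 and 9.01. Its ranges overlapped through C57BL/6N replicate 3 and, narrowly, replicate 4 (difference -0.16, SE 0.124, adjusted p = 0.485).

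Of the 5 CDK inhibitors, 2 were lower in BALB/c, both of the Cip/Kip family that binds cyclin-CDK complexes. The share lower at 0.05 was 5.63% of all genes tested and 8.85% of those with a mean rlog of at least 7. Cdkn1b, which encodes p27, was 12.44, 12.43, 12.32 and 12.19 in BALB/c and 12.62, 12.59, 12.94 and 12.98 in C57BL/6N. The ranges were apart and the difference was -0.44 (SE 0.101, adjusted p = 0.0216), although without BALB/c replicate 3 or 4 or C57BL/6N replicate 3 or 4 it missed 0.05 (adjusted p = 0.0591 to 0.0647). Cdkn1a, which encodes p21 and is induced by p53 and by differentiation, was 12.07, 12.36, 12.48 and 12.24 against 12.56, 12.58, 12.64 and 12.62. Its C57BL/6N corneas lay close together, above all BALB/c corneas (difference -0.31, SE 0.0805, adjusted p = 0.0357, exact two-sided permutation p = 0.0286). This call at 0.05 was kept only when BALB/c replicate 3 was the cornea left out, and the adjusted p was 0.0509 to 0.0966 without any other.

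Cdkn1c, the imprinted member of that family, was 8.29, 7.95, 7.96 and 8.24 against 7.96, 8.14, 7.81 and 7.65, with a mean higher in BALB/c and overlapping ranges (difference 0.22, SE 0.125, adjusted p = 0.332). Of the INK4 inhibitors, which block Cdk4 and Cdk6, Cdkn2b was 10.43 to 10.51 in BALB/c and 10.47 to 10.88 in C57BL/6N (difference -0.17, SE 0.0893, adjusted p = 0.289). Cdkn2a was the lowest of the 46, at 3.57 to 3.85 in the 8 corneas, where shrinkage of the rlog scale leaves little room for a difference (-0.037, SE 0.08).

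The mitotic cyclins had lower means in BALB/c without a call. Ccnb1 was 7.14, 7.31, 7.12 and 7.10 against 7.66, 7.49, 7.10 and 7.63, where C57BL/6N replicate 3 fell in with BALB/c (difference -0.30, SE 0.128, adjusted p = 0.188). Ccnb2 was 8.46, 8.89, 8.97 and 8.76 against 9.18, 9.01, 9.001 and 8.97 (difference -0.27, SE 0.111, adjusted p = 0.173), with ranges touching at 8.97. A copy named Ccnb1-ps was listed at means of 6.83 and 6.90, close to the level of Ccnb1 itself, so the value of Ccnb1 is uncertain where reads match both.

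Among mitotic kinases and checkpoint genes, 0 of 5 were called and all 5 had a lower mean in BALB/c. Bub1b, which encodes the checkpoint protein BubR1, was 9.04, 9.36, 9.26 and 9.23 against 9.71, 9.36, 9.65 and 9.51. Its ranges were apart, though their nearest values are equal at 2 decimals, with an adjusted p just above 0.05 (difference -0.34, SE 0.0957, adjusted p = 0.0539). Aurka, the kinase of the spindle poles, was 8.59, 8.76, 8.79 and 8.72 against 8.81, 8.96, 8.43 and 8.68 (difference -0.0063, SE 0.109), and its sign turned in 4 of 20 other settings. Aurkb, Bub1 and Plk1 lay between them at -0.16, -0.085 and -0.07, with adjusted p of 0.411, 0.768 and 0.722.

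In the group of spindle, kinetochore and chromosome proteins, 2 of 7 were lower and 0 higher. Among genes with a mean rlog of at least 7, 8.85% were lower and 8.31% higher at 0.05. Kif11, the kinesin that pushes spindle poles apart, was 8.80, 8.94, 9.06 and 8.68 in BALB/c and 9.34, 9.18, 9.23 and 9.42 in C57BL/6N, with ranges apart and a difference of -0.42 (SE 0.0951, adjusted p = 0.02). It missed 0.05 without BALB/c replicate 1 or 4 or C57BL/6N replicate 1 or 4 (adjusted p = 0.0525 to 0.0642). Cenpf, a protein of the outer kinetochore that accumulates in G2, was 11.08, 11.31, 11.32 and 11.14 against 11.51, 11.44, 11.40 and 11.52. These ranges were also apart, with a difference of -0.26 (SE 0.0678, adjusted p = 0.0391). The call was kept only without BALB/c replicate 2 or 3, and the adjusted p was 0.05 to 0.112 without any other cornea.

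Top2a, the topoisomerase that untangles sister chromatids, was 11.20, 11.54, 11.50 and 11.31 against 11.70, 11.63, 11.64 and 11.62, a separation of the ranges with an adjusted p of 0.0607 (difference -0.26, SE 0.0767). Mki67, which encodes the proliferation marker Ki-67, was 13.19, 13.53, 13.61 and 13.38 against 13.56, 13.48, 13.67 and 13.68. BALB/c replicates 2 and 3 lay within or near the range of C57BL/6N, and the difference of -0.17 (SE 0.0896) had an adjusted p of 0.301 and an exact two-sided permutation p of 0.143. The strains' difference in this marker was therefore not detectable with these corneas.

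Kif20a, a kinesin of cytokinesis, was the single mitosis gene with a higher mean in BALB/c, at 9.74, 9.98, 9.99 and 9.78 against 9.78, 9.77, 9.78 and 9.77 (difference 0.10, SE 0.0712, adjusted p = 0.439). The C57BL/6N corneas hardly differed from each other on this gene. Birc5 (survivin) and Tpx2, a spindle assembly factor, differed by -0.11 (SE 0.0906) and -0.12 (SE 0.0863).

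The strains also differed in the balance of replication and mitosis genes within a cornea, a value whose zero has no meaning of its own. It compares RNA levels and does not measure the share of cells in a phase. The mean rlog of the 13 replication genes less that of the 14 mitosis genes was 0.06, -0.01, -0.11 and 0.04 in BALB/c replicates 1 to 4 and -0.43, -0.39, -0.52 and -0.57 in C57BL/6N replicates 1 to 4. All 4 BALB/c corneas were above all 4 of the other strain, with means of -0.01 ± 0.08 and -0.48 ± 0.08 (SD, n = 4). Because it subtracts 2 means of the same library, this value is free of any factor that scales all genes of a cornea alike. It is given without a test, since the groups of genes were chosen with earlier results of these data known.

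Further genes of the same phases, none of them among the 46, were listed to follow that contrast. For 61 further DNA replication genes less 74 further mitosis genes, the value per cornea was 0.10, 0.04, -0.04 and 0.08 in BALB/c and -0.26, -0.21, -0.26 and -0.27 in C57BL/6N. The ranges were apart here too, and the strain means were 0.04 ± 0.06 and -0.25 ± 0.03 (SD, n = 4). These lists were read in the same corneas and also chosen with earlier results of these data known. They are therefore no independent support for the contrast, and no test is given.

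**Figure D3:**
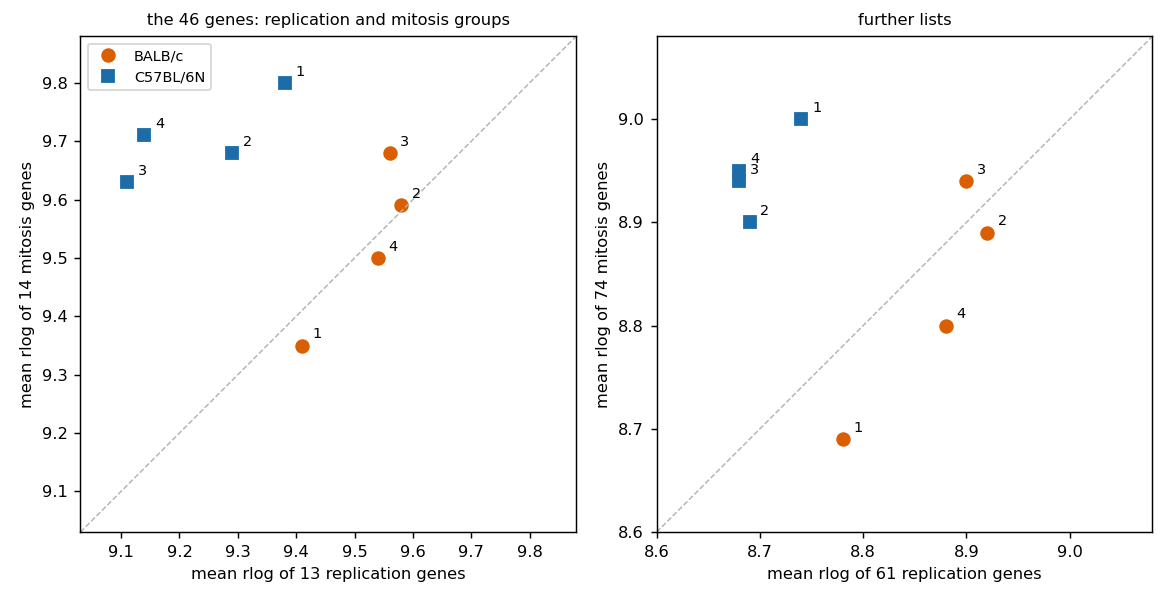
Mean rlog of replication genes (x axis) against mean rlog of mitosis genes (y axis) in each cornea, numbered by replicate, for the 13 and 14 genes among the 46 (left) and for further lists of 61 and 74 genes (right), with the line of equal means dashed. In both panels the C57BL/6N corneas lie above the line at the left and the BALB/c corneas lie nearer to it or below it, with BALB/c replicate 1 low on both axes in its strain.

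Of the 61 further DNA replication genes, 50 had a higher mean in BALB/c, with a median difference of 0.17. At an adjusted p of 0.05, 14 were higher and 1 was lower (24.6%). Of genes with a mean rlog of at least 7, 8.31% were higher and 8.85% lower at 0.05. At 0.01, 2 of the higher ones were called, 3.28% of the list. That share lies below the background, 5.74% of all genes tested and 8.92% at a mean rlog of at least 7. Dtl, whose ubiquitin ligase degrades Cdt1 during S phase, differed by 0.51 (SE 0.085, adjusted p = 0.00409), and Hells, a chromatin remodeller of replicating DNA, by 0.52 (SE 0.0843, adjusted p = 0.00337). Uhrf1, Gins2 and Orc1 were among the others higher at 0.05, at 0.48, 0.51 and 0.55. The exception was Dbf4, the activator of the origin-firing kinase Cdc7, at -0.31 (SE 0.0839, adjusted p = 0.0423).

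Of the 74 further mitosis genes, 56 had a lower mean in BALB/c, with a median of -0.12, and 6 (8.11%) were lower and 0 higher at 0.05. That share is near the 8.85% lower among all genes with a mean rlog of at least 7. Pttg1, which encodes securin, the brake on sister separation, was lower by 0.47 on the log2 scale in BALB/c (a difference of -0.47, SE 0.0702, adjusted p = 0.00227), and Melk, a kinase of mitotic cells, differed by -0.71 (SE 0.0969, adjusted p = 0.00131). These 2 passed 0.01, a share of 2.70% of the list. That lies below the background at 0.01, 5.74% of all genes tested and 8.92% at a mean rlog of at least 7. Cdca3, Cenpa, Kifc1 and Kif14 passed 0.05 at -0.53, -0.41, -0.39 and -0.32.

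The G1/S and other regulators did not move to one side. Of 52 listed, 50 were tested, 25 had a higher and 25 a lower mean, and the median was 0.014. At 0.01, Ccng2, an atypical cyclin raised in resting cells, was lower in BALB/c (-0.77, SE 0.0803, adjusted p = 0.000242), as were the antiproliferative gene Btg1 (-0.36, SE 0.0575, adjusted p = 0.00326) and the growth factor effector Myc (-0.42, SE 0.0652, adjusted p = 0.00263). Anapc5, a subunit of the anaphase-promoting complex, was higher (0.28, SE 0.0422, adjusted p = 0.00248). At 0.05, 4 were higher, among them Chek1, the replication checkpoint kinase (0.56), and 4 lower. Of 25 genes of the p53 pathway, 0 were called at 0.01 and 1 at 0.05, Plk2 (0.30), with a median of -0.024.

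**Figure D4:**
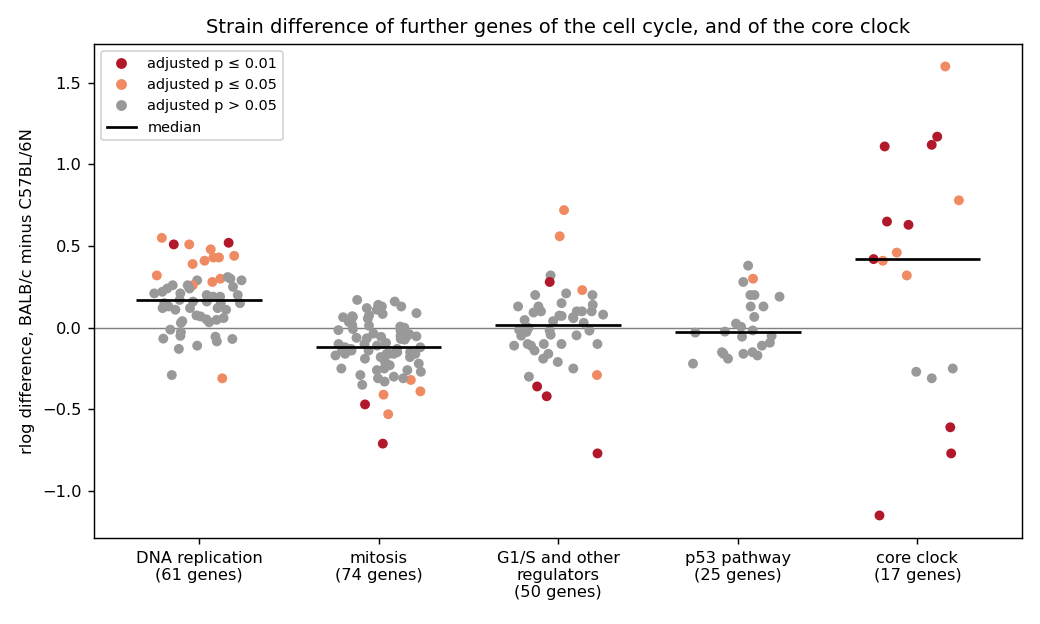
Difference of each gene in 4 further lists of the cell cycle and in the core clock (y axis, rlog units, BALB/c minus C57BL/6N, a point per gene, spread sideways for legibility), coloured by adjusted p-value, with the median of each list as a line. The median is 0.17 for DNA replication, -0.12 for mitosis, 0.014 for G1/S and other regulators, -0.024 for the p53 pathway and 0.42 for the core clock.

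Single corneas weighed on these values. BALB/c replicate 1 was the lowest of its strain in 12 of 14 mitosis genes and 8 of 13 replication genes, and in 54 of 74 and 40 of 61 genes of the further lists. BALB/c replicate 3 was the highest of its strain in 11 of 14 mitosis genes. In C57BL/6N, replicates 3 and 4 both lay below replicates 1 and 2 in 9 of 13 replication genes but in 4 of 14 mitosis genes. The median within-strain SD of the 46 genes was 0.132 in BALB/c and 0.14 in C57BL/6N, against 0.095 and 0.117 over genes with a mean rlog of at least 7.

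The corneas also differed in what other tissue they held. The mean rlog of 20 stromal keratocyte genes was 11.14 in BALB/c replicate 2 and 10.54 and 10.51 in C57BL/6N replicates 3 and 4, against 12.28 to 12.69 in the other 5 corneas, and Lum ranged from 8.13 to 12.68. With this mean as a covariate, 8 of the 46 genes were higher (Pcna, Mcm3, Mcm4, Cdt1, Ccnd1, Ccnd2, E2f1 and E2f7) and 1 lower (Cdkn1b) at an adjusted p of 0.01, while calls over all genes also rose, to 9.12%. Among the 5 corneas rich in stroma, E2f7 was the single one of the 46 called at 0.01 (adjusted p = 0.00957), against 3.35% of all genes. At 0.05, Mcm4 (0.29), Ccnd1 (0.30) and E2f7 were higher there, against 4.16% of all genes. The 2 lower ones, Ccnb1 (-0.46) and Cdk6 (-0.28), were none of the 4 lower in all corneas, and 4.84% of all genes were lower. Differences of Mcm3 and Ccnd2 shrank to 0.31 and 0.40 and were not called.

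Lens transcripts averaged 6.87 and 6.15 in BALB/c replicates 1 and 4 and 4.41 to 4.97 in the other 6 corneas, with Cryaa from 5.52 to 11.09. Pigment cell transcripts were highest in the same 2 corneas (9.21 and 10.06 against 5.64 to 7.62), with Tyrp1 from 6.25 to 12.65. In the 6 corneas low in lens transcripts, 0 of the 46 genes were called at 0.01 by limma, 19 (41.3%) had an unadjusted p under 0.05, against 16.8% of all genes, and at an adjusted p of 0.05, 4 were higher (Mcm4, Cdt1, Ccnd1 and E2f7) and 0 lower, against 2.51% and 2.22% of all genes. Mki67 differed by -0.027, Top2a by -0.13, Cenpf by -0.15 and Kif11 by -0.29 in these corneas.

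Of the other marker lists, differentiated corneal epithelium had 1 of 16 genes called higher and 2 lower at 0.01, basal and limbal epithelium 0 and 2 of 15, keratocytes 1 and 0 of 20, and conjunctiva 0 and 4 of 8. These were Epcam (0.73), Dsg1a (-0.68) and Tjp1 (-0.31), Krt15 (-4.10) and Itga6 (-0.47), Col3a1 (2.45), and Krt4, Krt13, Krt19 and Muc4 (-1.17, -2.51, -0.97 and -0.48), named after their values were seen. At 0.05 the lists also held genes that were higher, such as Muc5ac (2.19) and Krt8 (0.40) of the conjunctiva list and Ifitm3 (2.32), Itgb4 (0.22), Lamb3 (0.31) and Itga3 (0.28) of the basal and limbal list. Krt14, a basal keratin, differed by -0.087 (adjusted p = 0.771). Corneal endothelium (6 genes), lens (12), pigment cells (7 tested), leukocytes (12 tested), vascular and lymphatic endothelium (9), red blood cells (5 tested) and skeletal muscle (8) had 0 called at 0.01 by limma, and 1, 1, 0, 0, 2, 0 and 0 at 0.05. Ptprc, the common leukocyte antigen, stood at 4.42 to 5.22. With the mean of the differentiated epithelium list as a covariate, 6 of the 46 were higher at 0.05 (Mcm4, Cdt1, Ccnd1, Ccnd2, E2f1 and E2f7) and 0 lower, against 4.90% and 4.63% of all genes, so that all 4 lower calls were lost. The part of the other cell types in the differences of the 46 genes was not tested, beyond the stromal covariate and the subsets of corneas.

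Core clock genes differed between strains in the same RNA. Of 17, 6 were called higher in BALB/c at 0.01 (Per2 at 1.11, Dbp at 1.12, Ciart at 1.17, Tef at 0.65, Cry2 at 0.63 and Bhlhe40 at 0.42) and 3 lower (Arntl at -1.15, Npas2 at -0.77 and Clock at -0.61), and their part in the cell cycle differences was not tested.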

How the data were processed

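Total RNA of 4 BALB/c and 4 C57BL/6N corneas was sequenced by the authors from strand-specific libraries as paired reads. Reads were trimmed, cleared of ribosomal and transfer RNA, aligned with TopHat2 2.1.1 to strain-specific pseudo-genomes of GRCm38, converted back to the reference and counted per Ensembl gene with HTSeq 0.7.1, whose strand setting is not given in the sources used here. The authors deposited regularized log values that DESeq2 1.30 had given them (log2 scale, another measure than counts), so the depth of each cornea is unknown from them and no count model was run. Of 31314 genes not at 0 in all corneas, 31278 had a symbol in the GENCODE annotation of GRCm38, including all 46 cell cycle genes.

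The strain difference was fitted with limma 3.58.1 in R 4.3.3 (lmFit, eBayes with a variance trend) without covariates over genes with a mean rlog of at least 0, with Benjamini-Hochberg adjustment, at the study's threshold of 0.01. For single genes, the exact two-sided permutation p came from scipy 1.17.1. The fit was tested on simulated data. The 46 genes, the 4 further lists, the 12 marker lists and the tests were chosen with earlier results of these data known, and the background over genes with a mean rlog of at least 7 was added after seeing the data. Genes are named as follows: values per cornea are given for genes called, for the highest and lowest difference of each role group and for Mki67, Top2a, Pcna, Ccnd1, Cdk1 and Cdkn1a, called genes of each further list are named up to 8, and from the marker lists defining markers are named. Promoters are from RefSeq (GRCm38.p6). The 4 further lists hold DNA replication, mitosis, G1/S and other regulators, and the p53 pathway. Alternatives were no trend, a robust fit, other filters, median centring, quantile normalization, an empirical null, the replicate block, stromal and epithelial covariates, each cornea left out and a threshold of 0.05. Plots used matplotlib 3.10.9.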

Additional observations from a re-analysis of the deposited data

Results flagged for a closer look

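Each of the 46 genes was screened in each strain for a cornea far from the other 3, by the gap to its nearest neighbour as a share of the range. Of 92 groups, 2 exceeded Dixon's critical value for 4 samples, against 4.6 groups by chance at 1 in 20. Ccnd2 in BALB/c had a share of 0.836, with replicate 3 lowest at 12.40 and the nearest cornea at 12.77. Ccne1 in BALB/c had a share of 0.885, with replicate 1 lowest at 7.70 and the nearest at 8.32. The cause of either was not tested.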

How the results depend on the processing

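Of the 46 genes, 34 kept the sign of their difference in all 20 alternative settings, but the counts called moved with many of them. No trend, the robust fit, the other filters, the empirical null and the replicate block leave the differences unchanged. They could not turn a sign, so only the remaining settings bear on sign stability. As fitted, 3 genes were higher and 0 lower at 0.01, 10 higher and 4 lower at 0.05, and 1458 of all genes were called at 0.01. Median centring gave 0 higher at 0.01, 5 higher and 1 lower at 0.05, and 958 of all genes. Quantile normalization gave 5 higher at 0.01. An empirical null (SD 1.67) was fitted here to limma results. It is another method than the study's recalibration of DESeq2 p-values with fdrtool, after which the study still called genes at 0.01. The empirical null gave 0 in each count and 0 of all genes at 0.01 and at 0.05. At an unadjusted p under 0.05 from limma with this null, it held 1725 of all genes and 5 of the 46. The stromal covariate gave 8 higher and 1 lower at 0.01 and 2316 of all genes, and the epithelial covariate 6 higher and 0 lower at 0.05. Chosen after seeing the data, the 5 stroma-rich corneas gave 1 higher at 0.01, 3 higher and 2 lower at 0.05 and 852 of all genes, and the 6 corneas low in lens transcripts 0 higher at 0.01, 4 higher and 0 lower at 0.05 and 447 of all genes. Both of these use fewer corneas. A threshold of 0.05 called 10 higher, 4 lower and 2842 of all genes. With 1 cornea left out, 0 to 4 were higher at 0.01, 6 to 11 higher and 0 to 4 lower at 0.05, and 953 to 1163 of all genes were called. The cause of these shifts was not tested otherwise.

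The replicate block gave 1 higher at 0.01, 5 higher and 0 lower at 0.05 and 554 of all genes. Deviations of same-numbered corneas from their strain means, over all genes tested, correlated at 0.31, -0.53, -0.20 and -0.45. These deviations also hold the corneas' differences in stroma and lens transcripts, so they cannot decide whether the numbers pair corneas.

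Signs turned for 12 genes, of which Cdkn1c (0.22, SE 0.125) and Rrm1 (0.18, SE 0.094) had the largest differences as fitted. Neither was called, and each turned in 1 of 20 settings. Mcm6 was -0.056 with median centring, -0.021 with quantile normalization, -0.0084 with the stromal and -0.014 with the epithelial covariate, and -0.13 in stroma-rich corneas. Tyms was -0.055, -0.044 and -0.058 with median centring, quantile normalization and in stroma-rich corneas, where Rrm1 was -0.0067 and Cdkn2a 0.071. With the epithelial covariate Ccne1 was 0.054, Cdkn1c -0.0032 and E2f8 0.013. In corneas low in lens transcripts Ccne1 was 0.05, Aurka 0.052, Bub1 0.047, Plk1 0.0014, Foxm1 0.014 and E2f8 0.042. With 1 cornea left out Mcm6 ranged from -0.027 to 0.083, Mcm7 from -0.06 to 0.017, Tyms from -0.023 to 0.055, Ccne1 from -0.16 to 0.072, Cdkn2a from -0.09 to 0.0034, Aurka from -0.1 to 0.072, Bub1 from -0.2 to 0.034 and E2f8 from -0.033 to 0.056.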
